A study of Mus musculus with 18 samples.

Results

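RNA-seq of the embryonic cortex was compared between Fto conditional knockout mice (F-cKO) and their controls (Ctrl), over every gene row of the deposited read count table. The 6 libraries of this comparison, 3 F-cKO and 3 Ctrl, were chosen by their genotype and assay labels out of 18 libraries in the series. All 6 came from the cerebral cortex of C57BL/6 mice at embryonic day 15.5. Ctrl mice were labelled wild type and F-cKO mice carried the genotype Fto(f/f, Emx1-cre). In F-cKO mice both floxed Fto alleles are recombined by a Cre that is driven by the Emx1 promoter, which is active in the dorsal telencephalon and so leaves vessels, meninges, microglia and migrating interneurons with an intact Fto gene. The study bred its floxed line on a mixed C57/BL6 and 129 background, and no source used here says how many embryos went into an RNA-seq library, so the P values measure the spread between these libraries. The other libraries of the series were RNA-seq of Mettl3 knockout cortex (M-cKO, 3 libraries) and Ribo-seq of the same 3 genotypes (9 libraries), and they were used only where named.

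Fto removes the N6-methyladenosine (m6A) mark from RNA, and the Mettl3 complex adds it. At this stage of development the dorsal cortex builds its neurons from radial glia, which divide at the ventricle and carry Pax6 and Sox2, and from intermediate progenitors, which carry Eomes and divide away from it. The neurons born from them migrate outward, form deep and then upper layers, and begin to express the receptors, channels and vesicle proteins of the synapse, while astrocytes and oligodendrocytes appear later.

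Each library held between 18504094 and 22169914 counted reads, and the log2 CPM (read counts scaled to library size with TMM factors) of libraries within a group correlated at 0.985 to 0.991 across genes. Markers of the dorsal cortex were abundant in every library, with mean Ctrl levels per transcript length of 320.1 FPKM for the excitatory neuron gene Neurod6, 42.4 for Tbr1, 40.4 for Eomes and 48.6 for Sox2, against 0.491 for the striatal receptor gene Drd2 and 2.02 for the microglial gene Cx3cr1. Among 16944 genes tested with edgeR's quasi-likelihood test, 1955 (11.5%) had higher levels in F-cKO and 1621 (9.57%) lower levels at a Benjamini-Hochberg adjusted P below 0.05, and the median log2 fold change of all genes was −0.013. Gene lists are described by the number of members called in each direction and by their median, beside these shares and without a test of the list. A value in parentheses after a gene symbol is its log2 fold change of F-cKO against Ctrl, ± gives a standard error, "rose" and "fell" refer to called genes, and groups do not overlap where all 3 F-cKO libraries lay above, or all below, the 3 Ctrl libraries. Apart from markers and contrasts, genes were named only if called without overlap, so for them the absence of overlap describes the choice and adds no support. For markers and contrasts it only describes the libraries, since the share of all genes tested without overlap was not counted.

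Fto itself was at 142, 148 and 110.5 CPM in the 3 Ctrl libraries and at 42.7, 98.96 and 31.9 CPM in the 3 F-cKO libraries (log2 fold change −1.21 ± 0.33, edgeR adjusted P = 0.0298). The groups did not overlap, but F-cKO replicate 2 lay close to the lowest Ctrl library while F-cKO replicates 1 and 3 were far below it. The counts cover all exons of Fto, including those outside the floxed part. F-cKO replicate 2 was kept as labelled, and whether its label is right, or whether it holds more tissue in which Fto is intact, was not tested, so each F-cKO mean includes a library whose loss of Fto mRNA is small. Without F-cKO replicate 2 the log2 fold change was −1.84 ± 0.16 (edgeR adjusted P = 0.0142), and the call was lost in DESeq2 (adjusted P = 0.067) and on leaving out any Ctrl library or F-cKO replicate 1 (edgeR adjusted P from 0.0553 to 0.0803), with the direction lower in each. The other m6A eraser gene, Alkbh5, was at 74.01, 78.7 and 64.3 CPM in Ctrl and rose to 88.9, 93.1 and 87.2 CPM in F-cKO (log2 fold change 0.31 ± 0.078, edgeR adjusted P = 0.0216). All 3 F-cKO libraries lay above the Ctrl libraries.

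**Figure D1:**
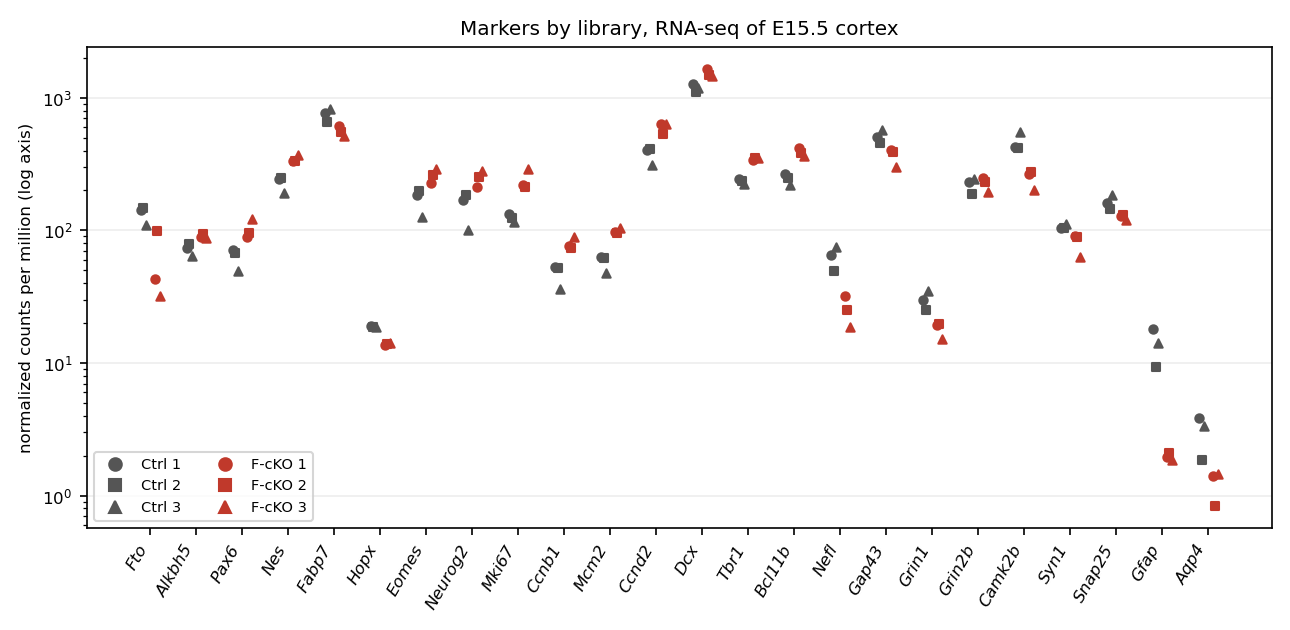
CPM (log axis) of 24 marker genes in each of the 3 Ctrl libraries (grey) and 3 F-cKO libraries (red), with a different symbol for each replicate. Progenitor and cell-cycle genes such as Mki67 and Pax6 lie higher in F-cKO, Nefl, Grin1, Camk2b and Gfap lie lower, and Fto in F-cKO replicate 2 sits near the lowest Ctrl library.

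The program that moved most often was cell division. Of 76 genes of mitosis and the kinetochore, 64 rose, 0 fell and all 76 had a log2 fold change above 0, with a median of 0.69. Mki67, the gene of the proliferation antigen Ki-67, was at 133, 124 and 116 CPM in Ctrl and 218, 211 and 293 CPM in F-cKO (log2 fold change 0.95 ± 0.12, edgeR adjusted P = 0.00294). Top2a, the topoisomerase that untangles chromosomes, was at 140.1, 136 and 100.1 CPM in Ctrl and 242, 231 and 271 CPM in F-cKO (log2 fold change 0.98 ± 0.12, edgeR adjusted P = 0.00294). Ccnb1, the cyclin that drives entry into mitosis, was at 52.9, 51.7 and 36.2 CPM in Ctrl and 76.8, 74.1 and 89.1 CPM in F-cKO (log2 fold change 0.77 ± 0.13, edgeR adjusted P = 0.0058). In each of these genes all 3 F-cKO libraries were above all 3 Ctrl libraries, and Ctrl replicate 3 was the lowest library. The largest changes among those called were those of the spindle motor gene Kif11, the condensin gene Ncapg and the kinetochore scaffold gene Knl1, which rose by 1.11 ± 0.26, 1.10 ± 0.17 and 1.04 ± 0.16 on the log2 scale. The kinases Cdk1 (0.56), Plk1 (0.63), Aurka (0.60), Bub1 (0.94) and Ttk (0.79) also rose. In bulk tissue more dividing cells and more of these mRNAs in each dividing cell cannot be told apart, and the same holds for every change below. The study counted cells in sections of F-cKO cortex at the same stage. It reported no change in the numbers positive for BrdU, Ki67, Sox2 or Tbr2, the protein of Eomes. The number of mitosis genes called higher was 56 without F-cKO replicate 2, 57 without F-cKO replicate 3 and 52 without Ctrl replicate 3.

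Because these genes moved together, the RefSeq promoters (build GRCm38.p6) of Mki67, Ccnb1 and Mcm2 are shown, as the 250 bases before the transcription start in the direction of the gene. Capitals mark 3 motifs that are known from cell-cycle promoters, searched on both strands, where a window can hold several and they share no position here: the CCAAT box (CCAAT), the CHR element (TTTGAA) and an E2F site (TTTCGCGC, TTTGGCGC or TTTCCCGC).
Mki67, chr7:135716380-135716629, minus strand: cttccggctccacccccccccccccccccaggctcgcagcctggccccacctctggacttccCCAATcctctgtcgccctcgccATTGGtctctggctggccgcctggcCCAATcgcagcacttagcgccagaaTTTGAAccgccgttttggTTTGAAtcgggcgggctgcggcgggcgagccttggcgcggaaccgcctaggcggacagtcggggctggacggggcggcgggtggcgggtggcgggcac
Ccnb1, chr13:100786487-100786736, minus strand: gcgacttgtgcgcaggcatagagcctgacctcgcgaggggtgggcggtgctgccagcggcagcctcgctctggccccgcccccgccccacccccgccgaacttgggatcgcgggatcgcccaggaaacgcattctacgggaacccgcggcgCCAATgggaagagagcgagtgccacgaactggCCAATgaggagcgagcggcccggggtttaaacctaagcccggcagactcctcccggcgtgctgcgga
Mcm2, chr6:88898781-88899030, minus strand: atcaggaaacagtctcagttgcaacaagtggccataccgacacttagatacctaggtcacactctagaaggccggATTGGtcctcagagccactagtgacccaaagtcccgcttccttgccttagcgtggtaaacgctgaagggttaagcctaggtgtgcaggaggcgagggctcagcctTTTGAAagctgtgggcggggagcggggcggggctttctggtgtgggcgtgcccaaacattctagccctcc
The Mki67 window held 3 CCAAT boxes, 188, 166 and 141 bases before the start, and 2 CHR elements, 116 and 98 bases before it. The Ccnb1 window held 2 CCAAT boxes, 99 and 67 bases before the start, and neither other motif. In the Mcm2 window 1 CCAAT box and 1 CHR element began 175 and 70 bases before the start. Among the mitosis genes with a promoter window, 46 of 66 (69.7%) held a CCAAT box, 23 (34.8%) a CHR element and 7 (10.6%) an E2F site, compared with 40.0%, 12.7% and 3.22% of 11555 tested genes with a window. Of the DNA replication genes with a window, 25 of 42 (59.5%) held a CCAAT box, 6 (14.3%) a CHR element and 9 (21.4%) an E2F site. These matches describe the letters of the windows and were not measured as binding.

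DNA replication followed the same direction. Of 50 replication genes 31 rose and 0 fell, with a median log2 fold change of 0.43. Mcm2, a subunit of the replicative helicase, was at 62.7, 61.8 and 47.8 CPM in Ctrl and 97.5, 95.9 and 104 CPM in F-cKO (log2 fold change 0.78 ± 0.098, edgeR adjusted P = 0.00294). Of the helicase subunits Mcm3 (0.88), Mcm4 (0.58), Mcm5 (0.72), Mcm6 (0.55) and Mcm7 (0.36) rose as well. Clspn, which relays the replication checkpoint, rose by 0.90 ± 0.15 and Ticrr, which helps origins to fire, by 0.81 ± 0.18 on the log2 scale. Pcna, the sliding clamp, was at 149.8, 152 and 132 CPM in Ctrl and 186, 189.5 and 199 CPM in F-cKO (log2 fold change 0.40 ± 0.067, edgeR adjusted P = 0.00505). All 3 F-cKO libraries were above the Ctrl libraries for Mcm2 and Pcna. The count of replication genes called higher was 19 without Ctrl replicate 3.

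Genes that control entry into the cycle moved with them. Among 26 genes of G1 and the restriction point 14 rose and 0 fell (median 0.34). Ccnd2, a D-type cyclin of cortical progenitors, was at 402, 410.3 and 313 CPM in Ctrl and 638, 531 and 631 CPM in F-cKO (log2 fold change 0.68 ± 0.11, edgeR adjusted P = 0.00465). Ccnd1 (0.54), its partner kinases Cdk4 (0.34) and Cdk6 (0.45), and the transcription factor genes E2f3 (0.62), E2f7 (0.77) and E2f8 (0.55) also rose. The list also holds brakes on the cycle, of which Rbl1, a pocket protein, and Cdkn1b, the inhibitor p27, rose by 0.72 ± 0.16 and 0.28 ± 0.065, while Cdkn1a, Cdkn1c, Cdkn2c and Rb1 were not called.

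Intermediate progenitor genes were higher in F-cKO. Of 18 such genes 12 rose and 0 fell, with a median log2 fold change of 0.57. Eomes, the transcription factor that defines these cells, was at 185, 198 and 127 CPM in Ctrl and 227, 261 and 288 CPM in F-cKO (log2 fold change 0.61 ± 0.15, edgeR adjusted P = 0.0197). The proneural factor Neurog2 was at 169, 183 and 101.4 CPM in Ctrl and 212, 254 and 282 CPM in F-cKO (log2 fold change 0.72 ± 0.19, edgeR adjusted P = 0.0249). Both genes showed no overlap between the groups, their lowest library was Ctrl replicate 3 and their highest F-cKO replicate 3. Neurog1, a relative of Neurog2, was much scarcer, with 2.47, 1.92 and 0.271 CPM in Ctrl and 4.88, 6.04 and 8.39 CPM in F-cKO, and rose by 2.02 ± 0.49 on the log2 scale (edgeR adjusted P = 0.0185). Nhlh1 (1.06), a helix-loop-helix factor of newly formed neurons, and Rhbdl3 (1.06) followed in size. Insm1, which promotes the formation of these progenitors, was at 184, 200.1 and 145 CPM in Ctrl and 198, 230.5 and 215 CPM in F-cKO with overlapping groups (edgeR adjusted P = 0.0921). The count of intermediate progenitor genes called higher was 7 without F-cKO replicate 2.

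Radial glia genes split. Of 32 genes 17 rose and 5 fell (median 0.30). Pax6 was at 70.6, 66.96 and 49.2 CPM in Ctrl and 89.3, 94.9 and 121 CPM in F-cKO (log2 fold change 0.71 ± 0.14, edgeR adjusted P = 0.0102), and Nes, the intermediate filament gene of neural stem cells, at 244, 247 and 191 and 336, 332 and 368 CPM (log2 fold change 0.60 ± 0.097, edgeR adjusted P = 0.00456). Sox2 was at 106, 109 and 88.9 CPM in Ctrl and 142, 142 and 132 CPM in F-cKO (log2 fold change 0.45 ± 0.080, edgeR adjusted P = 0.00639). None of these 3 genes overlapped between the groups. Sox3 (0.996), Tfap2c (0.70), Fgfr3 (0.60), Sox9 (0.57), Emx2 (0.44) and Vim (0.40) rose as well. The 5 genes that fell were Tnc, Hopx, Fabp7, Mfge8 and Slc1a3, of which Tnc and Hopx are known from outer radial glia, and Slc1a3 and Fabp7 are also expressed in the astrocyte lineage. Tnc, an extracellular matrix gene, was at 232, 242 and 294 CPM in Ctrl and 176, 167 and 157 CPM in F-cKO (log2 fold change −0.62 ± 0.090, edgeR adjusted P = 0.00379). Fabp7, the brain lipid-binding protein gene, was at 765, 659 and 829 CPM in Ctrl and 609.7, 554 and 511 CPM in F-cKO (log2 fold change −0.43 ± 0.094, edgeR adjusted P = 0.0134). Here all 3 F-cKO libraries were below all 3 Ctrl libraries. The number of radial glia genes called higher was 11 without Ctrl replicate 3.

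The Notch pathway keeps radial glia from differentiating by signalling between neighbours. Of its 24 genes 12 rose and 2 fell (median 0.36). Among the receptors Notch1 was at 77.02, 78.02 and 58.5 CPM in Ctrl and 124, 142 and 137 CPM in F-cKO (log2 fold change 0.91 ± 0.10, edgeR adjusted P = 0.00294), and Notch2 (0.52) and Notch3 (0.62) rose too. Of the ligands Dll1 (0.37) and Dll3 (0.43) rose while Jag2 fell from 69.8, 71.3 and 79.3 CPM to 47.5, 45.8 and 37.6 CPM (log2 fold change −0.75 ± 0.095, edgeR adjusted P = 0.00299). In the nucleus the pathway's DNA-binding factor Rbpj (0.60), its coactivator Maml3 (0.70) and the targets Hey1 (0.58) and Nrarp (0.60) rose. The best known effectors were not called. Hes1 was at 13.7, 11.97 and 8.34 CPM in Ctrl and 14.97, 15.5 and 21.97 CPM in F-cKO (edgeR adjusted P = 0.052) with no overlap, and Hes5 at 14.2, 12.7 and 10.8 and 11.2, 14.7 and 17.1 CPM (edgeR adjusted P = 0.466) with overlap.

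The study's own lists of radial glial cell (RGC) and intermediate progenitor (IP) genes, which it took from earlier reports, were split by membership in the cell-cycle lists above. Of 465 RGC genes tested 203 rose and 38 fell (median 0.25). The 81 of them that are cell-cycle genes gave 70 that rose and 0 that fell (median 0.67), while the other 384 gave 133 and 38 (median 0.18). The IP list behaved in the same manner, with 131 of 322 genes higher and 17 lower, and its 48 cell-cycle genes held 44 of those that rose (median 0.71). Without them 87 of 274 IP genes rose and 17 fell (median 0.15). The shares called higher outside the cell cycle, 34.6% of RGC genes and 31.8% of IP genes, stood beside 11.5% of all genes tested.

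**Figure D2:**
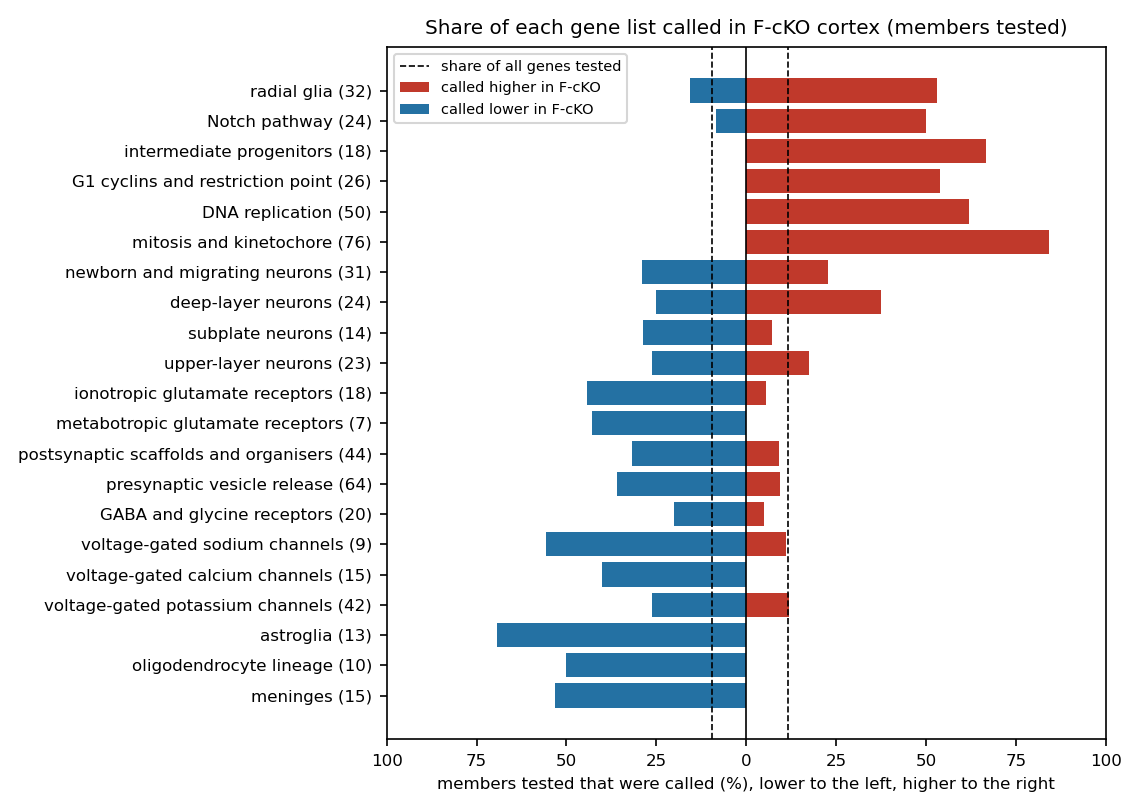
Share of the tested members of each gene list (number tested in brackets) that was called higher (red, to the right) or lower (blue, to the left) in F-cKO, with dashed lines at the shares over all genes tested, 11.5% and 9.57%. The progenitor and cell-cycle lists reach to the right, with 64 of 76 mitosis genes higher, and the synapse, channel, glial and meningeal lists reach to the left.

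Neuronal identity genes moved in both directions. Of 31 genes of newborn and migrating neurons 7 rose and 9 fell, with a median of −0.028, near that of all genes. Dcx, the microtubule protein of migrating neurons, was at 1273, 1101 and 1187 CPM in Ctrl and 1651, 1491 and 1457 CPM in F-cKO (log2 fold change 0.37 ± 0.075, edgeR adjusted P = 0.0101). Rnd2 (0.62), a GTPase of radial migration, and the nuclear factor genes Nfia (0.37) and Nfib (0.43) also rose. The genes that fell were Nefl, Nefm, Stmn2, Gap43, Sema3c (−0.49), Ncam1 (−0.47), Mapt, Bhlhe22 (−0.38) and Tubb3. Nefl, the light neurofilament, was at 65.3, 49.5 and 75.2 CPM in Ctrl and 31.98, 24.9 and 18.6 CPM in F-cKO (log2 fold change −1.33 ± 0.19, edgeR adjusted P = 0.00378). Gap43, a growth cone protein, was at 508, 458 and 571 CPM in Ctrl and 401, 390.3 and 302 CPM in F-cKO (log2 fold change −0.49 ± 0.11, edgeR adjusted P = 0.0163). For both, every F-cKO library was below every Ctrl library, and F-cKO replicate 3 was the lowest. The log2 fold changes were −0.59 for Nefm, −0.55 for Stmn2, −0.41 for Mapt and −0.30 for Tubb3. Neuronal genes that were not called include the excitatory neuron gene Neurod2, at 764, 834 and 763 CPM in Ctrl and 758, 864 and 829 CPM in F-cKO (edgeR adjusted P = 0.613), and Rbfox3, the NeuN gene, at 104, 107 and 109.6 and 98.5, 113 and 103 CPM (edgeR adjusted P = 0.788). Their groups overlapped.

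Genes of the deep layers also moved in both directions. Of 24 deep-layer genes 9 rose and 6 fell (median 0.087). Bcl11b, the factor of subcerebral projection neurons, was at 266, 246 and 221 CPM in Ctrl and 416, 383 and 364 CPM in F-cKO (log2 fold change 0.67 ± 0.080, edgeR adjusted P = 0.00294). Tbr1, the factor of layer 6, was at 245, 236 and 224 CPM in Ctrl and 339, 348 and 349 CPM in F-cKO (log2 fold change 0.55 ± 0.057, edgeR adjusted P = 0.00294). Sox5, which times the birth of deep-layer neurons, was at 199, 184 and 146 CPM in Ctrl and 300.0, 312 and 358 CPM in F-cKO (log2 fold change 0.88 ± 0.11, edgeR adjusted P = 0.00307). None of these overlapped, and Fezf2 (0.33), Otx1 (0.52) and Foxp2 (0.47) rose by less. Against them Crym, a thyroid hormone-binding protein, was at 84.8, 84.6 and 94.7 CPM in Ctrl and 40.3, 44.8 and 34.9 CPM in F-cKO (log2 fold change −1.14 ± 0.093, edgeR adjusted P = 0.00294), and the adhesion gene Cntn6 was at 9.31, 3.59 and 13.3 and 2.29, 2.16 and 1.54 CPM (log2 fold change −2.12 ± 0.42, edgeR adjusted P = 0.00895). S100a10 (−1.001), the secreted factor Dkk3 (−0.89), Ldb2 (−0.41) and Hs3st4 (−0.34) fell as well, while Grik3, Nfib and Wnt7b (0.43) were the other genes of the list that rose. In the subplate list 4 of 14 genes fell, Ccn2 (−1.20), Nr4a2 (−0.83), Hpcal4 (−0.82) and Nxph3 (−0.25), and 1 rose, Nxph4 (0.46).

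Upper-layer genes gave 4 that rose and 6 that fell of 23 (median 0.0097). Cux2 was at 138, 149 and 157 CPM in Ctrl and 138, 130.5 and 115 CPM in F-cKO, with overlap and not called (edgeR adjusted P = 0.0851). Mef2c, a factor of activity-dependent maturation, fell from 374, 299 and 460.1 CPM to 269.8, 236 and 199 CPM (log2 fold change −0.68 ± 0.15, edgeR adjusted P = 0.0135). Dok5 (−0.68) and Lmo4 (−0.64) fell beside it, while Rgs8 (0.90), the ephrin receptor Epha3 (0.62) and the netrin receptor Unc5d (0.34) rose. Cajal-Retzius genes gave 4 that rose and 3 that fell of 14, among them Reln, their secreted guide for migration, at 259, 249.8 and 226 CPM in Ctrl and 335, 307 and 324 CPM in F-cKO (log2 fold change 0.39 ± 0.068, edgeR adjusted P = 0.00563).

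Synaptic genes moved the other way from progenitor genes. Over the 219 tested members of the receptor, scaffold, vesicle and channel lists 74 fell and 18 rose, with a median log2 fold change of −0.24. Of 18 ionotropic glutamate receptor genes 8 fell and 1 rose (median −0.30). Grin1, the subunit that every NMDA receptor needs, was at 29.9, 25.1 and 35.2 CPM in Ctrl and 19.4, 19.7 and 15.1 CPM in F-cKO (log2 fold change −0.74 ± 0.14, edgeR adjusted P = 0.00853). Grin2b, the main partner of Grin1 before birth, was at 233, 187 and 246 CPM in Ctrl and 248, 229.6 and 196 CPM in F-cKO, with overlap and no call (edgeR adjusted P = 0.935). Among NMDA receptor subunits Grin1, Grin2a (−1.06) and Grin2d (−0.90) fell, and Grin2b, Grin2c, Grin3a and Grin3b were not called. Of the AMPA receptor subunits Gria1 was at 166, 158 and 172 CPM in Ctrl and 143, 125 and 132 CPM in F-cKO (log2 fold change −0.31 ± 0.065, edgeR adjusted P = 0.0122), Gria4 (−0.38) fell too, and Gria2 and Gria3 were not called. In the kainate family Grik2 (−0.28), Grik4 (−1.0) and Grik5 (−0.28) fell and Grik3 (0.37) rose. Metabotropic receptors gave 3 lower genes of 7, Grm2, Grm3 (−0.97) and Grm5 (−0.69), and none called higher. Grm2 was at 29.7, 29.4 and 41.9 CPM in Ctrl and 14.9, 13.3 and 11.5 CPM in F-cKO (log2 fold change −1.35 ± 0.15, edgeR adjusted P = 0.00294), without overlap. Together 12 glutamate receptor genes were called lower by DESeq2 and 11 by edgeR, and the edgeR count was 4 without F-cKO replicate 2, 4 without Ctrl replicate 3 and 6 without Ctrl replicate 1.

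Among postsynaptic scaffolds and organisers 14 of 44 genes fell and 4 rose (median −0.18). Camk2b, a subunit of the kinase of synaptic plasticity, was at 425, 420.1 and 547 CPM in Ctrl and 268, 277 and 202 CPM in F-cKO (log2 fold change −0.90 ± 0.13, edgeR adjusted P = 0.00396). Dlg2, the PSD-93 scaffold, was at 163, 137 and 192 CPM in Ctrl and 114, 104 and 89.7 CPM in F-cKO (log2 fold change −0.68 ± 0.12, edgeR adjusted P = 0.00653). Neither overlapped, whereas the PSD-95 gene Dlg4 was at 324, 326 and 338 CPM in Ctrl and 324, 335 and 277 CPM in F-cKO with overlap and no call (edgeR adjusted P = 0.499). The AMPA receptor partners Cacng3 (−0.85), Shisa9 (−0.74), Shisa7 (−0.41) and Cnih2 (−0.35) and the scaffolds Shank1 (−0.34), Shank2 (−0.38) and Shank3 (−0.48) fell. The genes that rose were Arc (0.96), an immediate early gene, Lrrtm3 (0.46), Homer2 (0.43) and Homer3 (0.34). The count called lower was 9 without F-cKO replicate 2, 9 without F-cKO replicate 3 and 6 without Ctrl replicate 3.

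The presynaptic side was similar. Of 64 genes of vesicle release 23 fell and 6 rose (median −0.19). Snap25 and Stx1a, which form the fusion complex with the vesicle protein Vamp2, were among those that fell. Snap25 was at 159.5, 145 and 186 CPM in Ctrl and 129, 130.4 and 121 CPM in F-cKO (log2 fold change −0.37 ± 0.087, edgeR adjusted P = 0.0178), Stx1a at 78.5, 79.1 and 95.5 and 56.7, 58.4 and 47.2 CPM (log2 fold change −0.64 ± 0.10, edgeR adjusted P = 0.00443), and the log2 fold change of Vamp2 was −0.34 ± 0.083. Syn1, a phosphoprotein of the vesicle surface, was at 105, 104 and 112 CPM in Ctrl and 90.6, 89.2 and 62.9 CPM in F-cKO (log2 fold change −0.40 ± 0.12, edgeR adjusted P = 0.0417), and Syp, synaptophysin, at 145, 136 and 149 and 128, 123 and 104 CPM (log2 fold change −0.28 ± 0.082, edgeR adjusted P = 0.0378). All 4 genes given by library had every F-cKO library below every Ctrl library, by small margins for Syn1 and Syp in F-cKO replicates 1 and 2. Larger falls were seen for the small GTPase Rab3b (−0.90) and the calcium sensors Doc2a (−0.84), Doc2b (−0.77) and Syt4 (−0.78). The vesicular glutamate transporters differed, in that Slc17a6 rose from 58.4, 57.3 and 58.2 CPM to 64.2, 77.1 and 83.9 CPM (log2 fold change 0.37 ± 0.091, edgeR adjusted P = 0.0197) and Slc17a7 was at 69.4, 67.9 and 63.3 CPM in Ctrl and 67.1, 72.5 and 66.8 CPM in F-cKO with no call (edgeR adjusted P = 0.698). The count called lower was 12 without F-cKO replicate 2, 14 without F-cKO replicate 3, 9 without Ctrl replicate 3 and 10 without Ctrl replicate 1.

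Receptors of inhibition and voltage-gated channels were called lower more often than higher. In the GABA and glycine receptor list 4 of 20 genes fell, led by Gabra5 at 27.5, 19.4 and 34.8 CPM in Ctrl and 16.1, 14.2 and 9.28 CPM in F-cKO (log2 fold change −1.04 ± 0.23, edgeR adjusted P = 0.0138), and only Gabrq (1.10) rose. Of 9 sodium channel genes 5 fell, among them Scn2a (−0.40) and Scn8a (−0.39), which carry the axonal sodium current. Calcium channels gave 6 lower genes of 15 and none higher, with Cacna1i (−0.53) and Cacna1d (−0.48) the largest. Of 42 potassium channel genes 11 fell (26.2%) and 5 rose (11.9%), beside 9.57% and 11.5% of all genes tested. Kcnq3, a subunit of the M current, was at 108, 106 and 95.3 CPM in Ctrl and 152, 147 and 199.9 CPM in F-cKO (log2 fold change 0.69 ± 0.11, edgeR adjusted P = 0.00463). Kcna1 (0.83) and Kcna3 (1.02) also rose, and Kcns3 (−1.63), Kcng2 (−1.55) and Kcns1 (−1.24), all below 3 CPM, fell.

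**Figure D3:**
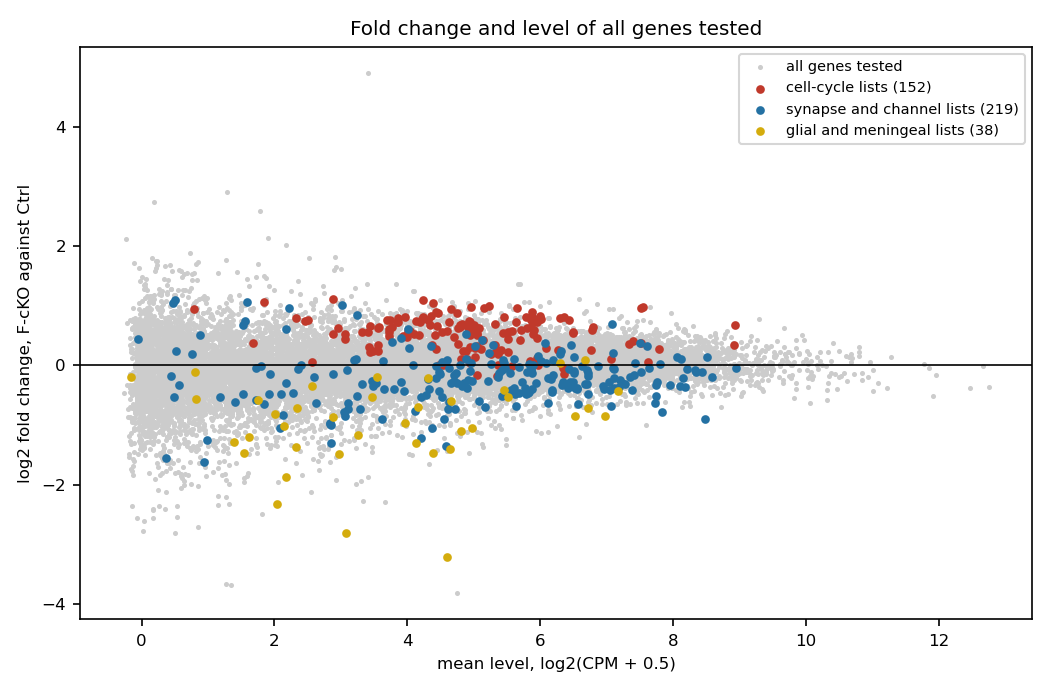
Log2 fold change of F-cKO against Ctrl (vertical) plotted on mean level as log2(CPM + 0.5) (horizontal) for the 16944 genes tested, with the members of the cell-cycle lists (152, red), the synapse and channel lists (219, blue) and the astroglial, oligodendrocyte and meningeal lists (38, yellow). The red points lie mostly above 0, with 109 called higher and 0 called lower, and the blue points mostly below, with 74 called lower and 18 higher.

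The shift was read library by library as the median, over the members of a list, of log2(CPM + 0.5) minus the Ctrl mean. For mitosis it was 0.12, 0.12 and −0.25 in the Ctrl libraries and 0.64, 0.59 and 0.81 in the F-cKO libraries. For intermediate progenitors it was 0.13, 0.21 and −0.36 in Ctrl and 0.42, 0.55 and 0.73 in F-cKO, and for presynaptic genes 0.0097, −0.097 and 0.080 in Ctrl and −0.14, −0.14 and −0.33 in F-cKO. Ctrl replicate 3 was thus lowest in the progenitor lists and highest in the presynaptic list, and F-cKO replicate 3 was its opposite. F-cKO replicates 1 and 2, which differed in Fto level, had similar medians in these 3 lists but not in others, with 1.07 and 0.36 for striatal genes, −0.996 and −2.04 for meningeal genes and −0.24 and −0.71 for metabotropic glutamate receptors. For radial glia the values were 0.11, 0.042 and −0.15 in Ctrl and 0.27, 0.27 and 0.36 in F-cKO, and for ionotropic glutamate receptors −0.00096, −0.12 and 0.14 and −0.28, −0.22 and −0.50.

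**Figure D4:**
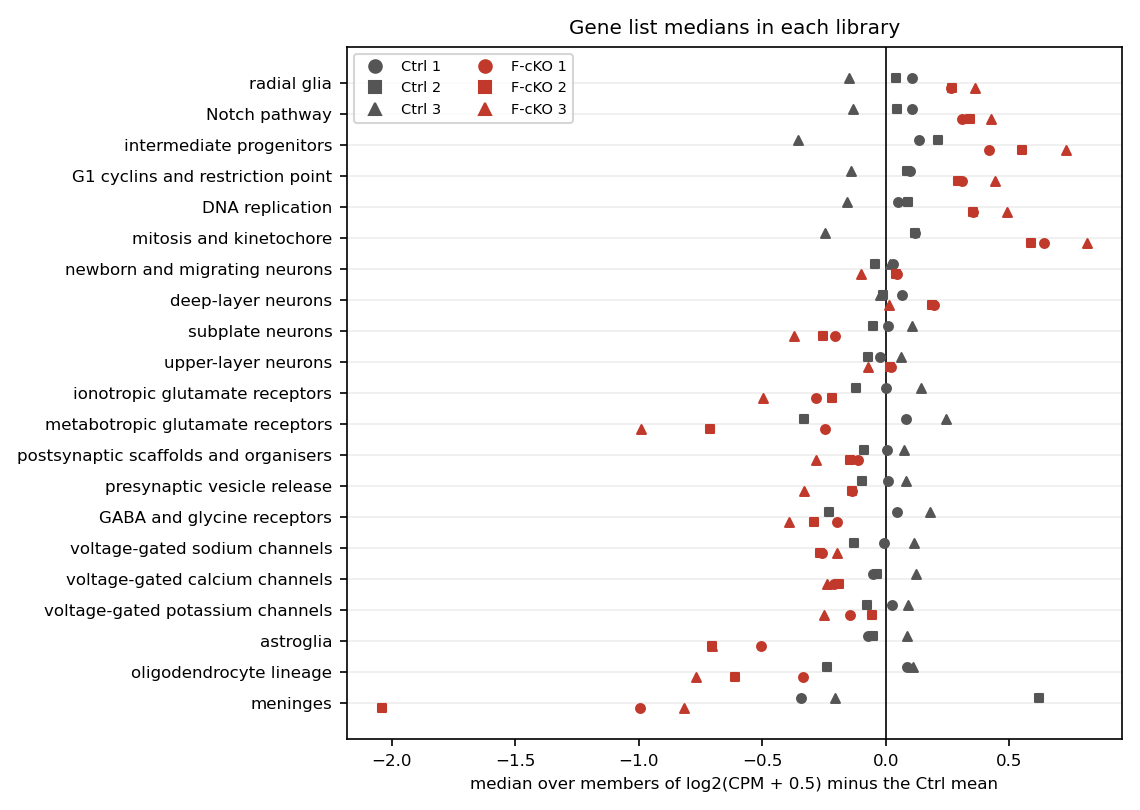
For each gene list, the median over its tested members of log2(CPM + 0.5) minus the Ctrl mean, in each of the 3 Ctrl libraries (grey) and 3 F-cKO libraries (red), with a different symbol for each replicate. In the 6 progenitor and cell-cycle lists at the top all F-cKO libraries lie to the right of all Ctrl libraries, and Ctrl replicate 3 lies farthest to the left.

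Markers of later-born glia were lower. Of 13 astroglial genes 9 fell and 0 rose (median −0.60), and their summed level was 820.4, 843 and 869 CPM in Ctrl and 603, 541 and 522 CPM in F-cKO. Gfap, the astrocyte intermediate filament, was at 18.1, 9.29 and 14.2 CPM in Ctrl and 1.95, 2.11 and 1.86 CPM in F-cKO (log2 fold change −2.81 ± 0.25, edgeR adjusted P = 0.00294). Aqp4, the astrocyte water channel, was at 3.82, 1.87 and 3.36 CPM in Ctrl and 1.41, 0.835 and 1.45 CPM in F-cKO (log2 fold change −1.29 ± 0.33, edgeR adjusted P = 0.0233). Apoe (−0.85) and Sparcl1 (−0.84) fell too. In the oligodendrocyte lineage 5 of 10 genes fell and none was called higher, with Olig1 at 34.9, 15.7 and 40.01 CPM in Ctrl and 13.2, 12.2 and 7.18 CPM in F-cKO (log2 fold change −1.48 ± 0.32, edgeR adjusted P = 0.0135) and its precursor receptor Pdgfra at 22.2, 21.6 and 20.7 and 16.97, 11.7 and 11.3 CPM (log2 fold change −0.69 ± 0.15, edgeR adjusted P = 0.0126). Every F-cKO library was below every Ctrl library in these 4 genes, narrowly for Olig1, where Ctrl replicate 2 stood close to F-cKO replicates 1 and 2.

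Markers of cells outside the cortical neural lineage moved as well, and their part in the results above was not tested. Of 15 meningeal genes 8 fell and none was called higher, with a summed level of 243, 425 and 251 CPM in Ctrl and 198, 127 and 209 CPM in F-cKO. Ptgds, the prostaglandin synthase of the meninges, was at 21.4, 74.96 and 32.4 CPM in Ctrl and 7.90, 2.85 and 3.12 CPM in F-cKO (log2 fold change −3.22 ± 0.50, edgeR adjusted P = 0.00439). Vascular lists had 4 of 16 endothelial and 5 of 9 pericyte genes lower, with 1 pericyte gene, Notch3, higher and summed endothelial levels of 266, 280.4 and 300.0 CPM in Ctrl and 239, 219 and 228 CPM in F-cKO. None of 12 microglial genes was called in either direction by edgeR, with 78.8, 90.5 and 78.1 CPM in Ctrl and 79.95, 62.5 and 63.5 CPM in F-cKO. Choroid plexus genes were uneven within Ctrl, at 93.7, 1029 and 400.4 CPM against 509, 350.5 and 494 CPM in F-cKO, with no gene of 8 called. Among markers of neighbouring tissue, 2 of 7 epidermal genes were called lower and 0 higher (39.6, 38.8 and 42.7 CPM in Ctrl and 29.1, 34.1 and 25.1 CPM in F-cKO), and 4 of 11 thalamic genes higher and 2 lower (623, 624 and 573 and 623, 705 and 723 CPM). Messenger RNAs of the mitochondrial genome were lower, with 9 of 13 called and a share of all counts of 1.89%, 1.73% and 2.14% in Ctrl and 1.32%, 1.32% and 1.58% in F-cKO.

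Red blood cell genes differed in kind. Hbb-y, the embryonic beta-like globin that gives way to adult globins as development proceeds, was at 1.30, 0.527 and 0.0541 CPM in Ctrl and 6.58, 4.27 and 48.3 CPM in F-cKO (log2 fold change 4.90 ± 1.06, edgeR adjusted P = 0.0126). Hba-x, the embryonic alpha-like globin, was at 0.719, 0.335 and 0.271 CPM in Ctrl and 1.80, 0.933 and 7.51 CPM in F-cKO (log2 fold change 2.91 ± 0.77, edgeR adjusted P = 0.0258). The adult globin Hbb-bs, whose reads cannot be cleanly separated from those of its near-identical neighbour Hbb-bt, fell from 104, 178 and 107 CPM to 84.8, 74.8 and 78.1 CPM (log2 fold change −0.71 ± 0.18, edgeR adjusted P = 0.0219). As a share of all beta-like globin reads, the embryonic genes Hbb-y and Hbb-bh1 made up 0.925%, 0.21% and 0.0744% in the 3 Ctrl libraries and 5.19%, 3.81% and 30.5% in the 3 F-cKO libraries. F-cKO replicate 3, with the largest share, was also the library with the largest progenitor shift, and Ctrl replicate 3, with the smallest share, lay at the other end. All libraries were labelled embryonic day 15.5, and whether the embryos of the groups differed in developmental stage was not tested, nor was the part of such a difference in the progenitor, neuronal and synaptic results.

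Genes of the ventral telencephalon and of patterning centres moved unevenly between libraries. In the striatal list 5 of 19 genes rose and none fell. Isl1, a factor of striatal projection neurons, was at 3.42, 1.58 and 1.95 CPM in Ctrl and 13.1, 7.71 and 3.68 CPM in F-cKO (log2 fold change 1.80 ± 0.44, edgeR adjusted P = 0.0191), and Ebf1 at 3.37, 3.69 and 3.30 and 17.6, 9.67 and 5.18 CPM (log2 fold change 1.64 ± 0.37, edgeR adjusted P = 0.015). F-cKO replicate 1 was the highest and replicate 3 the lowest of the F-cKO libraries for both, whereas F-cKO replicate 3 was the highest in the progenitor lists. Six3, another factor of that region, was at 2.97, 4.07 and 2.22 CPM in Ctrl and 14.3, 11.1 and 7.51 CPM in F-cKO (log2 fold change 1.82 ± 0.27, edgeR adjusted P = 0.00409). Interneuron genes gave 8 that rose and 4 that fell of 27, with the GABA synthesis gene Gad2 higher (0.55), Gad1 at 52.2, 49.8 and 53.5 CPM in Ctrl and 54.02, 48.1 and 40.8 CPM in F-cKO with no call (edgeR adjusted P = 0.404), and the neuropeptide Npy lower, from 36.8, 37.98 and 57.2 CPM to 20.9, 17.3 and 9.61 CPM (log2 fold change −1.46 ± 0.26, edgeR adjusted P = 0.00591). In the list of the cortical hem and hippocampal primordium, 7 of 23 genes rose, including the signals Wnt3a (1.10), Wnt8b (1.10) and Rspo1 (1.19), and 4 fell, Gfap, Nwd2, Bmp4 (−1.38) and Id3 (−0.59). Area patterning genes gave 4 that rose and 6 that fell of 26, and the rostral factor Etv4 fell (−0.93 ± 0.14).

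Guidance and polarity genes included some of the strongest single changes. Dcc, the netrin receptor, was at 33.1, 28.3 and 23.01 CPM in Ctrl and 63.9, 70.6 and 83.5 CPM in F-cKO (log2 fold change 1.37 ± 0.14, edgeR adjusted P = 0.00294), and its ligand Ntn1 at 12.4, 7.66 and 7.63 and 16.3, 16.1 and 13.8 CPM (log2 fold change 0.73 ± 0.19, edgeR adjusted P = 0.0231). In the list of Slit, Robo, netrin, Dcc and Unc5 genes 8 of 20 rose and 3 fell. Of 8 Fat, Dachsous and Celsr cadherin genes 5 rose and 1 fell, with Celsr1, a planar polarity receptor, at 149, 159.6 and 98 CPM in Ctrl and 234, 273 and 294 CPM in F-cKO (log2 fold change 0.98 ± 0.16, edgeR adjusted P = 0.00465). These 3 genes were named by a rule that required no overlap, and Fat3 rose too (0.94 ± 0.087). Semaphorin and plexin genes (6 higher, 6 lower of 30) and ephrin and Eph receptor genes (6 higher, 4 lower of 21) moved in both directions, and Sema5a (1.07) and Epha6 (−1.01) had the largest changes of these lists. Immediate early genes gave 5 that rose and 3 that fell of 17, and Npas4, which is induced by neuronal activity, fell (−0.996 ± 0.30) while Arc rose.

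Among the other genes of the m6A machinery 33.3% of writers and 33.3% of readers were called higher, beside 11.5% of all genes, and 0 were called lower. Of 9 writer genes 3 rose, Rbm15 (0.46), Virma (0.41) and Zc3h13 (0.22), which are auxiliary subunits of the complex. The catalytic subunit Mettl3 was at 29.9, 33.1 and 26.1 CPM in Ctrl and 32.1, 31.2 and 26.8 CPM in F-cKO, with overlap and no call (edgeR adjusted P = 0.944), and Mettl14 was at 42.5, 41.9 and 38.8 and 48.4, 45.8 and 46.96 CPM, without overlap and with no call (edgeR adjusted P = 0.0717). Of 12 reader genes 4 rose, Igf2bp2 (0.81), Igf2bp3 (0.61), Prrc2a (0.31) and Ythdf3 (0.29). Igf2bp2, which binds and stabilises mRNAs, was at 38.1, 44.02 and 29.9 CPM in Ctrl and 60.01, 64.5 and 72.1 CPM in F-cKO (log2 fold change 0.81 ± 0.13, edgeR adjusted P = 0.00443).

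Over all genes, the 8 in each direction with the largest change and no overlap between the groups (mean log2 CPM of at least 2) crossed these programs. Those that rose were Hbb-y, Neurog1, Six3, Isl1, Ebf1, the predicted genes Gm42664 (1.61) and Gm28119 (1.41), and Dcc. Among those that fell were Nts, Ptgds, Gfap, Ptk2b, Cntn6, a locus without an Ensembl identifier (−1.99) and Nwd2. Nts, the neuropeptide neurotensin, was at 56.8, 13.8 and 77.6 CPM in Ctrl and 3.12, 5.25 and 2.15 CPM in F-cKO (log2 fold change −3.82 ± 0.58, edgeR adjusted P = 0.0041). Ptk2b, a calcium-activated tyrosine kinase, was at 15.96, 9.24 and 22.7 CPM in Ctrl and 4.24, 2.85 and 2.75 CPM in F-cKO (log2 fold change −2.28 ± 0.31, edgeR adjusted P = 0.00345). In both genes the Ctrl libraries varied among themselves, with replicate 2 the lowest, and the absence of overlap was part of the rule that chose them.

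Fold changes also followed transcript length, as implied by the deposited counts and FPKM. When genes were divided by length into 10 classes of about equal size, in the class with the shortest transcripts (up to 1149 bases) the median log2 fold change was −0.16, with 2.0% called higher and 8.31% lower, and in the class with the longest (from 9594 bases) it was 0.13, with 30.9% and 7.43%. With each library's length trend removed as an offset, the medians lay between −0.010 and 0.044 in all 10 classes, and 18.1% of the longest genes were called higher. With the offset the list medians went from 0.69 to 0.70 for mitosis, from 0.57 to 0.62 for intermediate progenitors and from −0.19 to −0.21 for presynaptic genes. Other lists moved more, from 0.087 to 0.17 for deep-layer neurons, from 0.16 to 0.096 for the Slit, Robo and netrin list and from −0.52 to −0.37 for mitochondrial mRNAs. The medians of upper-layer neurons (0.0097 to −0.069), the hem list (0.053 to −0.056) and the choroid plexus (−0.094 to 0.0037) changed sign.

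**Figure D5:**
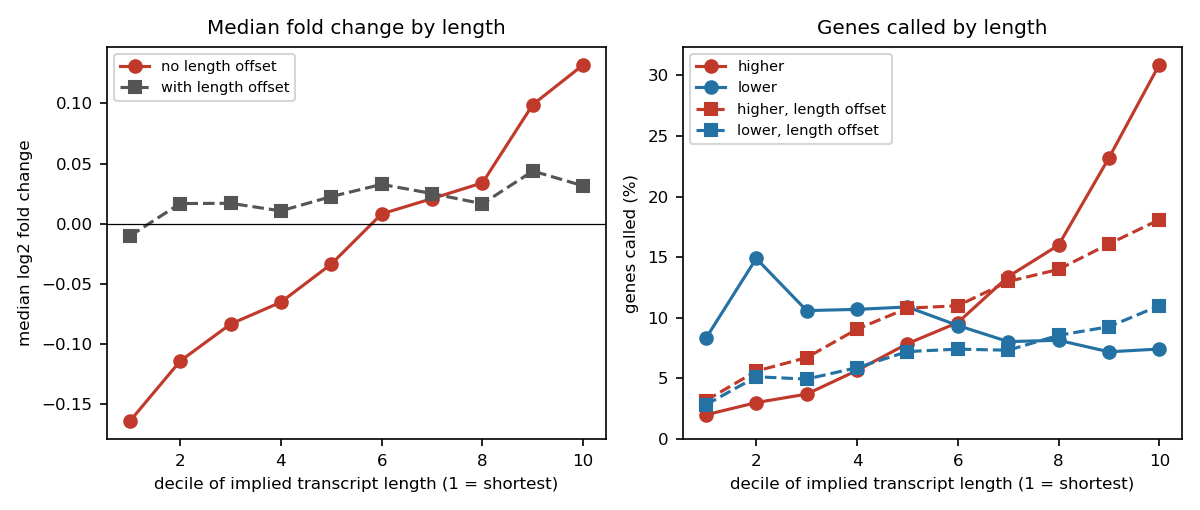
Left, median log2 fold change of F-cKO against Ctrl in each of 10 classes of genes ordered by implied transcript length, from the shortest (1) to the longest (10). Right, the percentage of genes called higher (red) or lower (blue) in each class, without (solid) and with (dashed) an offset for the length trend of each library. The share called higher goes from 2.0% to 30.9% without the offset and from 3.18% to 18.1% with it.

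To ask which programs differ between the loss of the eraser and the loss of the writer, F-cKO libraries were compared with the 3 M-cKO libraries directly, without a Ctrl library. At an adjusted P below 0.05, 14.3% of 16802 genes were more abundant in F-cKO than in M-cKO and 13.1% less abundant. Mitosis genes were higher in F-cKO for 31 of 76 and lower for 2, for example Top2a (0.54 ± 0.074, edgeR adjusted P = 0.000783), and radial glia genes were higher for 19 of 32 and lower for 5. Within radial glia Tnc (1.01 ± 0.089), Fabp7 (0.55 ± 0.071), Pax6 (0.58 ± 0.10) and Nes (0.51 ± 0.094) were higher in F-cKO and the 5 lower genes were all Sox factors, Sox1, Sox2, Sox3, Sox9 and Sox21. Upper-layer genes were higher in F-cKO for 12 of 23. Interneuron genes were lower in F-cKO for 19 of 28 and higher for 0, and meningeal genes were lower for 10 of 15. The presynaptic list gave 8 higher and 7 lower genes of 64, and the ionotropic glutamate receptors 3 and 8 of 18, so that the presynaptic list lay near the shares of all genes.

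The same genes were read in the Ribo-seq libraries, which measure ribosome-bound fragments in cortex of the same genotypes. Between 3 F-cKO and 3 Ctrl Ribo-seq libraries 0 of 14335 genes (0%) passed edgeR's adjusted P below 0.05, 318 had an unadjusted P below 0.05, and 1 of 14336 passed without F-cKO replicate 2. The study's methods speak of cortical samples lysed for Ribo-seq in wording that does not settle how they map to embryos, litters or libraries, and no source used here ties a Ribo-seq library to an RNA-seq library of the same number. Fto was at 275, 233 and 188 CPM in Ctrl and 40.3, 25.5 and 42.9 CPM in F-cKO, low in all 3 F-cKO libraries. Even so it was not called (log2 fold change −2.67 ± 0.25, edgeR adjusted P = 0.35), so the lack of calls does not show a lack of change. The study, with its own processing, did report differential mRNAs in F-cKO Ribo-seq. The mitosis list had medians of −0.011, 0.031 and −0.013 in Ctrl and 0.78, 0.44 and −0.14 in F-cKO, higher in F-cKO replicates 1 and 2 and below the Ctrl libraries in replicate 3. Mki67 was at 236, 248 and 276 CPM in Ctrl and 550.3, 495 and 229 CPM in F-cKO, and Eomes at 91.7, 96.9 and 85.03 and 172, 127 and 79.8 CPM. Gfap was at 14.3, 8.08 and 8.41 CPM in Ctrl and 1.89, 2.31 and 12.9 CPM in F-cKO, and Hbb-y at 0.384, 0.194 and 0.164 and 8.77, 13.7 and 0.800 CPM. In each of these 4 genes F-cKO replicates 1 and 2 stood apart from the Ctrl libraries in the direction seen in RNA-seq, and replicate 3 was within the range of Ctrl for Gfap, below it for Mki67 and Eomes and above it for Hbb-y, though by far less than the other replicates. Other markers went both ways. Ribo-seq log2 fold changes had the RNA-seq direction for Pax6 (0.70), Mcm2 (0.46) and Nes (0.45). They had the opposite direction for Dcx (−0.24), Tbr1 (−0.080), Alkbh5 (−0.073) and Grin1 (0.54). Presynaptic medians were 0.091, −0.10 and −0.0073 in Ctrl and −0.30, −0.15 and 0.10 in F-cKO, and those of ionotropic glutamate receptors −0.058, −0.017 and 0.088 and −0.27, 1.44 and 0.14, so that these lists moved in different directions in the 3 F-cKO libraries. Over all synapse lists together the medians were −0.37, 0.56 and 0.064 in F-cKO. In the fit of all 6 Ribo-seq libraries the median log2 fold change was above 0 in 7 of the 8 synapse and channel lists, with a range of −0.030 for the presynaptic list to 0.83 for calcium channels, and 0.15 over them together, beside 0.038 over all genes. In the fit without F-cKO replicate 2, which was added after seeing the data, the median log2 fold change was below 0 in all 8 synapse and channel lists, from −0.40 to −0.051, and −0.13 over them together, beside −0.0041 over all genes. Of the libraries left in that fit F-cKO replicate 1 had medians below 0 in all 8 lists and replicate 3 in 1 of them, so that the direction rests on replicate 1. F-cKO replicate 2 was also high in other lists, with medians of 3.23 for the Fat, Dachsous and Celsr cadherins, 2.46 for endothelium and 2.14 for mitochondrial mRNAs.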

How the data were processed

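The libraries compared and the gene lists were chosen with earlier results of these data known, and the RGC and IP lists are the study's own. Total RNA was sequenced after NEBNext Ultra library preparation, whose use of strand is not stated, so overlapping and antisense genes cannot be told apart. As deposited by the authors, the RNA-seq table holds raw read counts and FPKM for 55153 rows, of which 315 (0.137% to 0.154% of the reads in these libraries) have no Ensembl identifier, and the Ribo-seq table holds read counts. The submitters' processing notes name HISAT2 2.0.5, TopHat2, HTSeq, DESeq2 1.14.1 and build mm10, while the tool that counted the RNA-seq reads and its annotation are not given in the sources used here. FPKM values, made by the authors, served for levels per length and to imply transcript length. Blank Ribo-seq cells stand in 40490 of 54838 rows, and such a row was left out.

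Counts of the 3 F-cKO and 3 Ctrl libraries were fitted with edgeR 4.0.16 (R 4.3.3), after filterByExpr (minimum count 10, minimum total 15) and TMM scaling, with quasi-likelihood tests and Benjamini-Hochberg adjustment at 0.05. Standard errors are the absolute log2 fold change divided by the square root of F. Of 947 genes in 43 lists, 946 were in the table and 860 passed the filter. Besides the markers, up to 3 genes per list and direction (mean log2 CPM of at least 1) with the largest change among called genes without overlap were named, and other members named as contrasts to these were chosen after their values were seen. Alternatives were DESeq2 1.42.0, RLE scaling, no filter, a fit of all 9 RNA-seq libraries, a replicate block, leaving out each library and an offset for the length trend (loess span 0.3). The Ribo-seq fit without F-cKO replicate 2 was added after seeing the data. The edgeR and DESeq2 fits of F-cKO with Ctrl and with M-cKO, the Ribo-seq fit and the length offset were tried on simulated counts. The other alternatives were not. Results for a few genes are not reported here. Promoters came from RefSeq tables, and figures were drawn with matplotlib 3.10.9.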

Additional observations from a re-analysis of the deposited data

Results flagged for a closer look

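The effects of the 2 knockouts against the shared Ctrl libraries went in opposite directions, each past the threshold of edgeR's adjusted P below 0.05, for 5 of the named genes, and each also differed between F-cKO and M-cKO when these were compared directly. Fto, the deleted gene, differed by −1.56 ± 0.31 on the log2 scale between F-cKO and M-cKO (edgeR adjusted P = 0.00512), with −1.21 in F-cKO (−1.84 without F-cKO replicate 2) and 0.36 in M-cKO against Ctrl. Id3, an inhibitor of helix-loop-helix factors, differed by −1.01 ± 0.10 (edgeR adjusted P = 0.000147), with −0.59 in F-cKO and 0.43 in M-cKO. The other 3 genes, all higher in F-cKO, act in neuronal wiring and transmission. The netrin receptor gene Unc5d differed by 0.783 ± 0.073 (edgeR adjusted P = 0.000109), with 0.34 and −0.43. The ephrin receptor gene Epha4 differed by 0.816 ± 0.069 (edgeR adjusted P = 7.87e-05), with 0.53 and −0.27. The vesicular glutamate transporter gene Slc17a6 differed by 0.816 ± 0.13 (edgeR adjusted P = 0.00191), with 0.37 and −0.43. No formal test for an outlying library was made in groups of 3.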

How the results depend on the processing

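The labels number the replicates alike in both groups. Deviations from the group means of same-numbered libraries had correlations of −0.016, −0.153 and −0.09. With 3 libraries in a group such deviations balance around 0, so these values cannot show whether the numbers pair the samples. With a replicate block, 1275 genes were called higher and 855 lower, and the calls fell to 7 intermediate progenitor genes, 10 presynaptic genes and 8 postsynaptic genes. DESeq2 called 2096 genes higher and 1652 lower, RLE scaling 2005 and 1584, the fit without a filter 2320 and 2110, the fit of all 9 libraries 2288 and 1711, and the length offset 1823 and 1179. Leaving out each library in turn gave 984 to 1868 genes higher and 559 to 1606 lower, with the lowest counts without Ctrl replicate 3, followed by 1148 and 812 without F-cKO replicate 2, and the lower calls were 947 without Ctrl replicate 1. Over the same 6 fits the members called were 52 to 66 for mitosis, 19 to 30 for DNA replication, 7 to 12 for intermediate progenitors, 11 to 18 for radial glia, 4 to 12 for glutamate receptors, 9 to 22 for presynaptic genes and 6 to 15 for postsynaptic genes. In each case the cause was not tested beyond the smaller number of libraries.

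Of 189 named genes under 12 alternatives, 1983 of 2268 values kept direction and call, 263 kept direction and lost the call, 17 gained it and 5 changed direction. These 5 came from 3 genes without a call. The log2 fold change of Grin2b was −0.126 with the length offset and −0.0928 to 0.107 with libraries left out. That of Rbfox3 ranged from −0.0842 to 0.0208 and that of Dlg4 from −0.131 to 0.00317. Among list medians those of upper-layer neurons, newborn neurons, the hem, semaphorins, ephrins, erythroid cells and the choroid plexus changed sign with single libraries left out, the last to 1.0 without Ctrl replicate 2. The length offset also turned the medians of upper-layer neurons (−0.0686), the hem (−0.0563) and the choroid plexus (0.00375), and the replicate block that of the choroid plexus (0.365). Genes under the count minimum of 10 were not tested, and the precision of the others is set by 3 libraries in a group, with a biological coefficient of variation of 0.103.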
